A study of Mus musculus with 9 samples.

Results

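The glucocorticoid receptor gene Nr3c1 and 9 of its common target genes in the brain (Fkbp5, Sgk1, Tsc22d3, Per1, Pdk4, Zbtb16, Cdkn1a, Errfi1 and Klf9) were followed in mouse spinal cord as a sign of sickness stress. These 10 genes were chosen by name from the 40879 gene symbols of the count table, with earlier results of these data known. Each had enough reads to be tested, so 10 of the 15351 genes tested are described. The fewest reads were 15, for Pdk4 in 1 naive library.

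Glucocorticoids are steroid hormones that the adrenal cortex releases in stress and in illness, with a daily rhythm. They bind a receptor held ready in the cytoplasm by Hsp90 and its partner proteins. The bound receptor enters the nucleus, attaches as a dimer to glucocorticoid response elements in DNA and turns genes on or off. Some of these genes limit the hormone's own effect, and others dampen inflammation or alter cell metabolism. In the nervous system the receptor is made by neurons, glia and endothelium. Most of its target genes also answer to other signals, among them inflammatory cytokines, the circadian clock and DNA damage.

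RNA of whole spinal cord from wild-type (WT) mice was sequenced in 9 libraries, 3 in each of 3 groups. The groups were mice with experimental autoimmune encephalomyelitis (EAE) given GV1001, mice with EAE given vehicle, and naive mice without disease. EAE models multiple sclerosis through an autoimmune attack on myelin, and GV1001 is a peptide derived from telomerase. The strain, sex, age, stage of disease, dose and time of day of collection are not given in the sources used here, nor is whether the 3 replicates of a group were separate animals, so the p-values measure only the spread between these samples. Libraries were made with a 3′ mRNA kit that reads transcript ends, and levels are given as CPM, which are counts scaled to a common library total, with no correction for length. Total counts were 5292975 to 6174870 in the GV1001 libraries, 5247246 to 5736823 in the vehicle libraries and 5542411 to 5792583 in the naive libraries. All 11 spinal cord markers examined, Hox genes among them, were detected, with a summed level of 13925 to 20100 CPM, while the 5 forebrain markers summed to 3.17 to 5.53 CPM. Adrenal cortex markers summed to 1.76 to 3.56 CPM with GV1001, 3.77 to 8.19 CPM with vehicle and 1.60 to 3.28 CPM in naive cord. The vehicle libraries lay above all others, and the highest had 47 reads. Of these 5 markers 1 was tested, and Cyp11b2 and Cyp21a1 were at 0.

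Of the 8 members with a promoter entry, 1 has a complete glucocorticoid response element close to an annotated start site, and its promoter is shown for that reason. The element was searched for as the half-site AGAACA, any 3 bases and then TGTTCT, which reads the same on both strands. Windows ran from 250 bases before to 50 bases after each start site in RefSeq (GRCm38.p6, an earlier build than the GRCm39 to which the reads were mapped). The table held 18 windows for 8 of the 10 genes, all but Nr3c1 and Zbtb16. The complete element occurred in 1 of 6 Sgk1 windows, and in 3 of all 32851 windows (0.00913%). The part of that window before the start site, chr10:21993640-21993889 on the plus strand, has the element in capitals, at positions −189 to −175 counted from the start site.
Sgk1: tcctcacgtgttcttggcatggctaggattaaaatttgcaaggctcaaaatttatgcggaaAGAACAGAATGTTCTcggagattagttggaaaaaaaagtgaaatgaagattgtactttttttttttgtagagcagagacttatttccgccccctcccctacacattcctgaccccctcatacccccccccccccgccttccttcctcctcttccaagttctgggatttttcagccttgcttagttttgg

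A shorter core (AACA, any 3 bases and then TGT, on either strand) was in 3.06% of all windows and in 2 of the 18 windows, both of Sgk1, and in 1 of these it lay within the complete element, where it matched on each strand. The half-site alone, as AGAACA or TGTTCT, was in 19.0% of all windows and in 4 of the 18, of which 3 belonged to Sgk1 and 1 to Tsc22d3. The Tsc22d3 stretch, chrX:140600687-140600722 on the minus strand, has the half-site in capitals, at positions −185 to −180.
Tsc22d3: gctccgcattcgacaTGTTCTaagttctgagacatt
These matches describe letters near annotated starts, and binding of the receptor was not measured in these libraries.

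No member passed the test in any comparison. The threshold was an adjusted p of 0.05 in edgeR's quasi-likelihood test with Benjamini-Hochberg adjustment over all genes tested, and 0 of 10 members passed in EAE vehicle against naive, in EAE GV1001 against EAE vehicle, in EAE GV1001 against naive and in both EAE groups together against naive. Among all genes tested, 0.0195%, 0%, 0% and 0.00651% passed in these comparisons. At an unadjusted p under 0.05 the counts were 3, 0, 4 and 5 members, where 19.3%, 9.08%, 7.3% and 15.3% of all genes had such a p. Each of these members was higher in the EAE group, and 11.3%, 4.57%, 4.35% and 8.81% of all genes had such a p and were higher. DESeq2 on the same genes called 2 members in vehicle against naive, Sgk1 and Fkbp5, and 1 in both EAE groups against naive, Sgk1. That run, chosen after the data were seen, called 0 in the other comparisons, and limma-voom called 0 in each. Without the filter on low counts both DESeq2 and edgeR called Sgk1 alone, in vehicle against naive and in both EAE groups against naive. Over all genes, DESeq2 on the same genes called 1109 and 574 of 15351 in these comparisons. Without the filter DESeq2 called 1105 and 565 of 26840, and edgeR 543 and 20 of 26840.

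Where the libraries of a member did not overlap between groups, the member was higher in EAE. In EAE vehicle against naive 4 of 10 members (Fkbp5, Sgk1, Per1 and Errfi1) were higher without overlap, beside 13.6% of all genes tested. In EAE GV1001 against naive it was 6 of 10 (Sgk1, Tsc22d3, Per1, Zbtb16, Errfi1 and Klf9), beside 10.2%. Sgk1, Per1 and Errfi1 were above all naive libraries in all 6 EAE libraries, beside 5.25% of all genes. None was lower without overlap, where 9.5%, 6.7% and 2.78% of all genes were, so that 23.1%, 16.9% and 8.03% of all genes separated in either direction. Between EAE GV1001 and EAE vehicle 0 of 10 separated, beside 5.44% of all genes higher and 5.03% lower, 10.5% together. The comparisons with naive share the same 3 naive libraries.

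**Figure D1:**
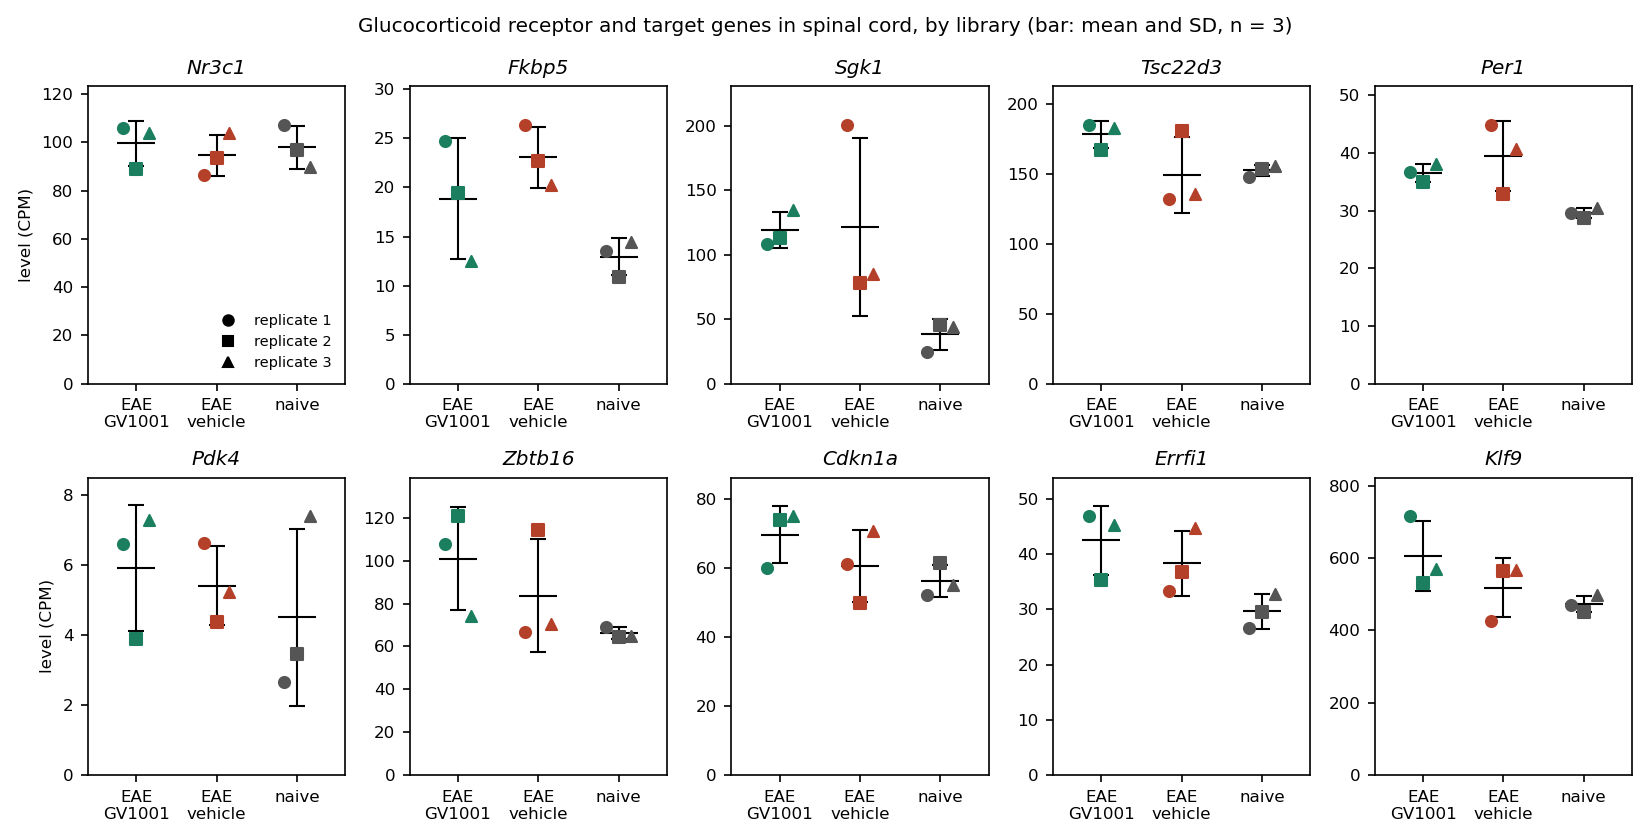
Level in CPM (vertical axis, from 0) of each of the 10 genes in the 3 groups (horizontal axis); each point is a library, its shape the replicate number, and the bars show the mean and SD of 3 libraries. Sgk1 lay at 77.9 CPM or more in every EAE library and at 45.7 CPM or less in naive libraries, while Nr3c1 lay between 86.6 and 107 CPM throughout.

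The receptor itself was level across the groups. Nr3c1 was at 106, 89.0 and 104 CPM in the EAE GV1001 libraries, 86.6, 93.4 and 104 CPM in the EAE vehicle libraries and 107, 96.7 and 89.7 CPM in the naive libraries. The 3 groups overlapped fully, and its SD of log2 CPM over all 9 libraries, 0.11, was the smallest of the 10 members, where the median gene had 0.26. The log2 fold change was −0.08 ± 0.11 (SE) in EAE vehicle against naive, 0.08 ± 0.11 in EAE GV1001 against EAE vehicle and −0.0025 ± 0.11 in EAE GV1001 against naive, with adjusted p of 0.742, 0.842 and 0.999 in edgeR. The last of these turned to 0.0038 with DESeq2 size factors and to 0.025 with library totals alone.

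Sgk1 differed most between EAE and naive cord. It encodes the serum- and glucocorticoid-regulated kinase, which acts on ion channels and transporters and is induced by the hormone and by cell stress. Its level was 109, 113 and 135 CPM in the EAE GV1001 libraries, 201, 77.9 and 85.1 CPM in the EAE vehicle libraries and 24.6, 45.7 and 44.0 CPM in the naive libraries. All 6 EAE libraries lay above all naive ones, vehicle replicate 1 stood far above the other vehicle libraries, and the EAE groups overlapped. The group means were 119 ± 13.9 CPM with GV1001, 121 ± 68.9 CPM with vehicle and 38.1 ± 11.8 CPM in naive cord (SD, n = 3 each).

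In EAE vehicle against naive the log2 fold change of Sgk1 was 1.65 ± 0.36 (SE), a 3.15-fold level, with an edgeR adjusted p of 0.0703. In EAE GV1001 against naive it was 1.61 ± 0.36, a 3.06-fold level, with an adjusted p of 0.565. By unadjusted p, Sgk1 ranked 193rd of 15351 genes in the comparison with vehicle and 29th in that with GV1001. With both EAE groups against naive it was 1.63 ± 0.33, with an adjusted p of 0.162. Without vehicle replicate 1 the fold change in vehicle against naive was 1.04, and that of GV1001 against vehicle was 0.57, where all libraries gave −0.04 ± 0.34 (adjusted p of 0.982). For Sgk1 in EAE vehicle against naive the call was met in DESeq2 on the same genes (adjusted p of 0.00715) and without the filter on low counts (0.00772), in edgeR without that filter (0.0178) and in edgeR without vehicle replicate 2 (0.0111). In EAE GV1001 against naive it was met in edgeR when only these 2 groups were fitted (0.0228) and without vehicle replicate 1 (0.0167). Over all genes these settings called 5 of 14736 and 3 of 15679. The settings named for vehicle against naive called 1109 of 15351, 1105 of 26840, 543 of 26840 and 1652 of 15848, in that order.

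Markers of microglia and macrophages varied in the same libraries. Of these 14 markers all 14 were tested, and their summed level was 538, 2554 and 857 CPM in the EAE GV1001 libraries, 7729, 1119 and 2958 CPM in the EAE vehicle libraries and 411, 473 and 494 CPM in the naive libraries, with no marker at 0. Vehicle replicate 1 was highest in both Sgk1 and this sum. It was also highest in T and B cell markers, 3 of 11 tested, at 88.7 CPM beside 17.7 to 32.4 CPM elsewhere. The same library was lowest in the sums of spinal cord, Schwann cell, oligodendrocyte, endothelium, neuron and erythrocyte markers. GV1001 replicate 1, whose marker sum lay near the naive range, was at 109 CPM of Sgk1, above the naive maximum of 45.7 CPM. The part of microglia, macrophages or other cells in the Sgk1 difference was not tested. In whole tissue, a change in the number of cells of a type and a change in RNA per cell cannot be told apart.

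Fkbp5 encodes a partner protein of Hsp90 that lowers the receptor's affinity for its hormone, and it serves as a readout of receptor activity in brain. Its level was 24.7, 19.4 and 12.5 CPM in the EAE GV1001 libraries, 26.4, 22.7 and 20.2 CPM in the EAE vehicle libraries and 13.5, 10.9 and 14.4 CPM in the naive libraries. Every vehicle library lay above every naive one, while GV1001 replicate 3 lay inside the naive range. Fkbp5 averaged 18.9 ± 6.16 CPM with GV1001, 23.1 ± 3.11 CPM with vehicle and 13.0 ± 1.85 CPM in naive cord (SD, n = 3 each).

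The log2 fold change of Fkbp5 was 0.81 ± 0.25 in EAE vehicle against naive, with an edgeR adjusted p of 0.113 and an unadjusted p of 0.00858. It was 0.51 ± 0.26 in EAE GV1001 against naive (adjusted p of 0.722) and −0.30 ± 0.24 in EAE GV1001 against EAE vehicle (adjusted p of 0.714). The difference between the EAE groups was −0.07 without GV1001 replicate 3 and −0.54 without GV1001 replicate 1. GV1001 replicate 3, the lowest of its group for Fkbp5, was the highest for Sgk1. In DESeq2 on the same genes the difference of vehicle from naive met the threshold, with an adjusted p of 0.0478. That run was chosen after the data were seen. In the planned DESeq2 run, without the filter on low counts, the adjusted p was 0.0526. On the same genes DESeq2 called 1109 of 15351 in that comparison.

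Per1 and Errfi1 were the other members above naive in every EAE library. Per1 is a clock gene whose transcription also answers directly to glucocorticoids. Its level was 36.7, 34.9 and 38.1 CPM in the EAE GV1001 libraries, 44.9, 33.0 and 40.6 CPM in the EAE vehicle libraries and 29.6, 28.7 and 30.5 CPM in the naive libraries. The naive libraries were close together, and vehicle replicate 2 was the EAE library nearest to them. On the log2 scale the difference was 0.39 ± 0.14 in EAE vehicle against naive (edgeR adjusted p of 0.160) and 0.28 ± 0.14 in EAE GV1001 against naive (0.726). Without vehicle replicate 2 the first was 0.51 and passed, with an adjusted p of 0.0339. In that setting 1652 of 15848 genes passed, where all 9 libraries gave 3 of 15351.

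Errfi1 encodes an inhibitor that binds the epidermal growth factor receptor and damps its signal. It was at 46.9, 35.3 and 45.3 CPM in the EAE GV1001 libraries, 33.4, 36.8 and 44.8 CPM in the EAE vehicle libraries and 26.5, 29.5 and 32.8 CPM in the naive libraries. No EAE library reached down to the naive range, although vehicle replicate 1 was within 1 CPM of it. Its log2 fold change was 0.34 ± 0.16 in EAE vehicle against naive (edgeR adjusted p of 0.271) and 0.49 ± 0.16 in EAE GV1001 against naive (0.640).

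**Figure D2:**
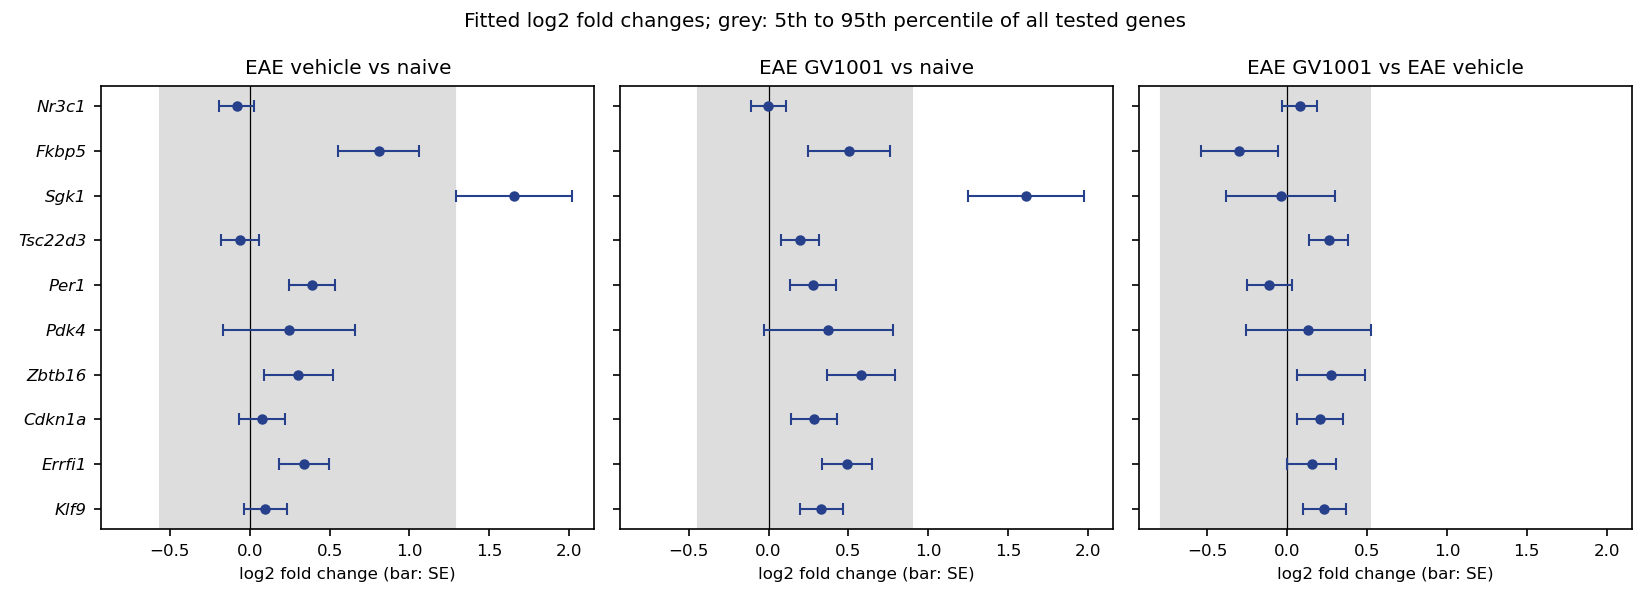
Fitted log2 fold change (horizontal axis) with its SE for each of the 10 genes (vertical axis) in 3 comparisons; the grey band spans the 5th to 95th percentile of all 15351 genes tested. Against naive cord Sgk1 lies above the band in both EAE groups, at 1.65 and 1.61, and between the EAE groups all 10 genes lie within −0.30 and 0.28.

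Zbtb16, Klf9 and Tsc22d3 separated from naive cord in the GV1001 group, not in the vehicle group. Zbtb16 encodes a zinc finger repressor of transcription and is among the strongly glucocorticoid-induced genes in many cell types. It was at 108, 121 and 74.3 CPM in the EAE GV1001 libraries, 66.6, 114 and 70.4 CPM in the EAE vehicle libraries and 69.3, 64.6 and 65.0 CPM in the naive libraries. The level was high in 3 EAE libraries (GV1001 replicates 1 and 2 and vehicle replicate 2) and near the naive range in the other EAE libraries. Its log2 fold change was 0.58 ± 0.21 in EAE GV1001 against naive (edgeR adjusted p of 0.654), 0.30 ± 0.22 in EAE vehicle against naive (0.491) and 0.28 ± 0.21 in EAE GV1001 against EAE vehicle (0.705). Without vehicle replicate 2 the last 2 were 0.03 and 0.54.

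Skeletal muscle transcripts were highest in the same 3 libraries. All 14 muscle markers were tested, and their summed level was 5130, 1413 and 561 CPM in the EAE GV1001 libraries, 205, 646 and 96.9 CPM in the EAE vehicle libraries and 122, 125 and 344 CPM in the naive libraries, with no marker at 0. The 3 highest libraries for Zbtb16 were the 3 highest for this sum, in another order. GV1001 replicate 3 was close behind in the sum, at 561 CPM beside 646 CPM in vehicle replicate 2. Its Zbtb16 level was 74.3 CPM, beside 114 CPM in vehicle replicate 2. Schwann cell markers, 10 of 10 tested, summed to between 2802 and 3855 CPM with GV1001, 941 and 2914 CPM with vehicle and 1480 and 1971 CPM in naive cord. Vehicle replicate 2 also stood apart in erythrocyte markers, which summed to 4859 CPM there and to 254 to 720 CPM in the other libraries. The part of muscle, nerve root and blood in these differences was not tested.

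Klf9 encodes a Krüppel-like transcription factor that glucocorticoids and thyroid hormone induce. It was at 716, 530.3 and 571 CPM in the EAE GV1001 libraries, 425, 564 and 567 CPM in the EAE vehicle libraries and 471, 451 and 497 CPM in the naive libraries. Its highest library, GV1001 replicate 1, also had the highest muscle sum. Its lowest, vehicle replicate 1, had the highest sums of microglia and macrophage markers and of T and B cell markers. For Klf9 the log2 fold change was 0.33 ± 0.13 in EAE GV1001 against naive (edgeR adjusted p of 0.659), 0.10 ± 0.13 in EAE vehicle against naive (0.745) and 0.23 ± 0.13 in EAE GV1001 against EAE vehicle (0.618). Without GV1001 replicate 1 the difference from naive was 0.19.

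Tsc22d3 encodes the glucocorticoid-induced leucine zipper protein, which binds inflammatory transcription factors and restrains them. Its level was 185, 167 and 183 CPM in the EAE GV1001 libraries, 133, 181 and 135 CPM in the EAE vehicle libraries and 148, 154 and 156 CPM in the naive libraries. All GV1001 libraries lay above naive, whereas vehicle replicates 1 and 3 lay below naive and vehicle replicate 2 among the GV1001 values. The log2 fold change was 0.20 ± 0.12 in EAE GV1001 against naive, −0.06 ± 0.12 in EAE vehicle against naive and 0.26 ± 0.12 in EAE GV1001 against EAE vehicle. Their adjusted p in edgeR was 0.768, 0.832 and 0.552. The last had an unadjusted p of 0.0546, the smallest of the 10 members between the EAE groups. Without vehicle replicate 2 it was 0.40, and the difference of vehicle from naive was −0.21. Neutrophil markers, 7 of 9 tested and none at 0, summed to 367, 234 and 432 CPM in the EAE GV1001 libraries, 212, 306 and 134 CPM in the EAE vehicle libraries and 45.4, 174 and 96.0 CPM in the naive libraries. The 4 highest libraries for Tsc22d3 were the 4 highest for this sum, in another order. The same 4 libraries were also the highest for the skeletal muscle sum given above, again in another order. Sums were made for 13 marker lists, and none of the others had these 4 libraries highest. No rule or cutoff for such matches was set beforehand. The part of neutrophils and of muscle in the Tsc22d3 difference was not tested.

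**Figure D3:**
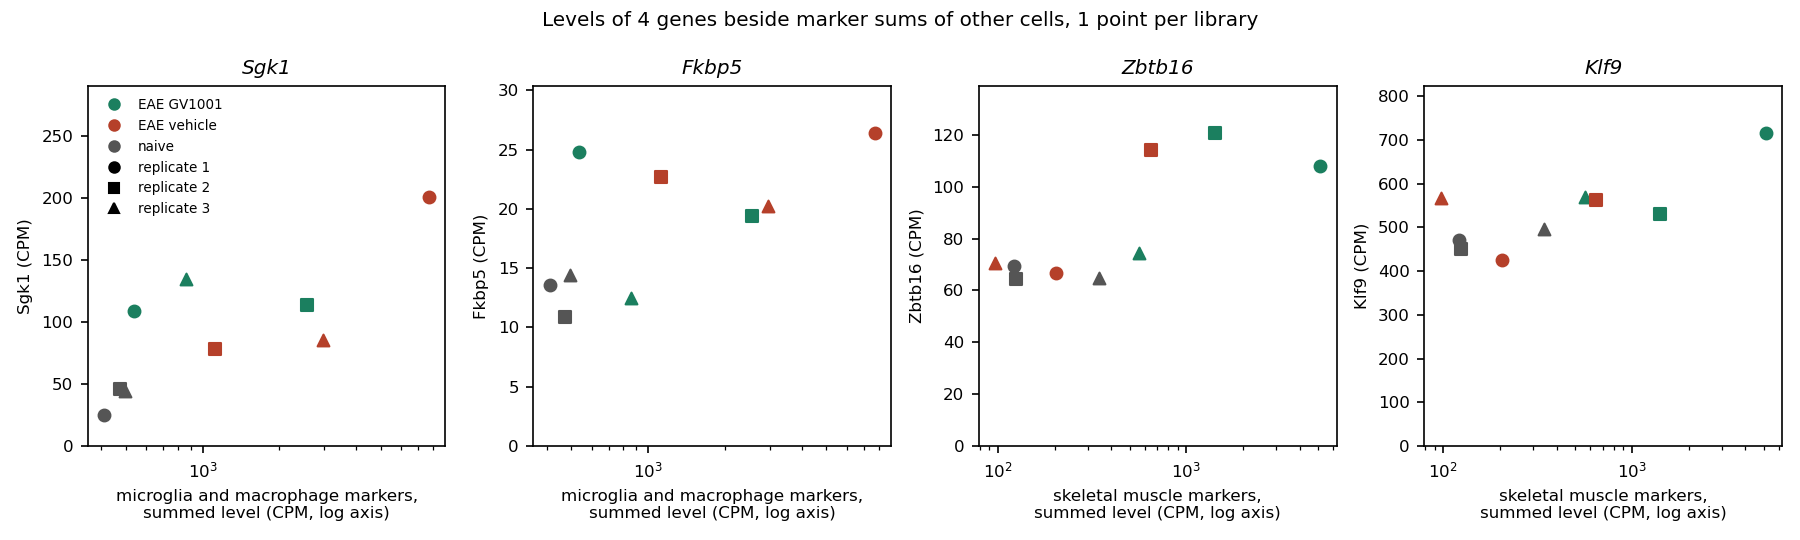
Level in CPM of Sgk1, Fkbp5, Zbtb16 and Klf9 (vertical axes, from 0) against the summed CPM of microglia and macrophage markers or skeletal muscle markers (horizontal log axes); each point is a library, its colour the group and its shape the replicate. Sgk1 is highest, at 201 CPM, where the microglia and macrophage sum is highest, at 7729 CPM. The 3 Zbtb16 points at 108 CPM or more are those with a muscle sum of 646 CPM or more. The Zbtb16 point with the next highest muscle sum, 561 CPM, lies at 74.3 CPM.

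Cdkn1a and Pdk4 overlapped between all groups. Cdkn1a encodes an inhibitor of cyclin-dependent kinases that stops the cell cycle and is best known as a target of p53. It was at 60.1, 74.1 and 75.0 CPM in the EAE GV1001 libraries, 61.2, 49.7 and 70.6 CPM in the EAE vehicle libraries and 52.2, 61.5 and 55.2 CPM in the naive libraries. The lowest library was a vehicle one and the highest a GV1001 one. Its log2 fold change was 0.08 ± 0.15 in EAE vehicle against naive (edgeR adjusted p of 0.828), 0.21 ± 0.14 in EAE GV1001 against EAE vehicle (0.673) and 0.28 ± 0.14 in EAE GV1001 against naive (0.726).

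Pdk4 encodes a kinase that switches off pyruvate dehydrogenase and so turns fuel use towards fatty acids. It had 35, 22 and 45 reads in the EAE GV1001 libraries, 37, 23 and 30 in the EAE vehicle libraries and 15, 20 and 41 in the naive libraries, which is 3.88 to 7.29, 4.38 to 6.64 and 2.67 to 7.40 CPM. The naive group alone held both the lowest and the highest CPM. The log2 fold change was 0.24 ± 0.41 in EAE vehicle against naive and 0.37 ± 0.41 in EAE GV1001 against naive, with edgeR adjusted p of 0.804 and 0.884. Without naive replicate 3 these were 0.79 and 0.92, and without naive replicate 1 they were −0.02 and 0.11.

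Over the 10 members the median log2 fold change was 0.27 in EAE vehicle against naive, 0.35 in EAE GV1001 against naive and 0.14 in EAE GV1001 against EAE vehicle, where the median of all genes was −0.0047, 0.0019 and −0.0088. The fitted value was above 0 for 8, 9 and 7 members, and for 49.5%, 50.5% and 48.6% of all genes. In both EAE groups together against naive it was above 0 for 9 members and for 49% of all genes. The spread inside a group was also uneven. Among GV1001 libraries the SD of log2 CPM was between 0.07 (Per1) and 0.49 (Fkbp5), with a median of 0.22 over all genes. Among vehicle libraries it was between 0.09 (Nr3c1) and 0.79 (Sgk1), with 0.26 over all genes, and among naive libraries between 0.04 (Tsc22d3) and 0.72 (Pdk4), with 0.16 over all genes.

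Likeness of profile was measured as the root mean square difference of log2 CPM over the 9 libraries after each gene was centred on its own mean. Among the 45 pairs of members, Errfi1 and Klf9 were closest, at 0.16, and Tsc22d3 and Klf9 next, at 0.16. Nr3c1 and Sgk1 were farthest apart, at 0.92, and Sgk1 was at 0.70 or more from every other member. Genes were not scaled to a common spread, so the measure also reflects how much each gene varied. Sgk1 lay 0.88 from its own mean, which is its distance from a gene without any change. Its SD of log2 CPM over the 9 libraries was 0.93, against 0.11 for Nr3c1. Neighbours were sought among 11833 genes with a mean of 5 CPM or more over the 9 libraries. Predicted symbols (Gm with a number, or ending in Rik) were left out. Closest to Sgk1 were Slc1a5, a neutral amino acid transporter (0.31), Vwf, the von Willebrand factor of endothelium (0.37), and AI467606 (0.38). In naive libraries Slc1a5 was at 1.96 to 5.70 CPM and AI467606 at 2.32 to 3.07 CPM, so their means reach that level through the EAE libraries. Closest to Fkbp5 were Mgst1, a microsomal glutathione transferase (0.16), and the ribosomal protein genes Rpl35 (0.16) and Rps4x (0.17), which have near-identical copies elsewhere in the genome.

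Genes that activate the hormone and hold its receptor were counted as a list of 20, of which 18 were tested. None passed in any of the 4 comparisons, with a smallest adjusted p of 0.0941, and the median log2 fold change was −0.04, 0.04 and 0.01 in vehicle against naive, GV1001 against vehicle and GV1001 against naive. The chaperone Hsp90ab1, the most abundant of them, was at 1960.2 CPM with GV1001, 1974 CPM with vehicle and 2135 CPM in naive cord. Stip1, which joins Hsp70 to Hsp90 as the receptor is loaded, was at 148, 159 and 172 CPM in the EAE GV1001 libraries, 116, 150.4 and 127 CPM in the EAE vehicle libraries and 175, 166 and 161 CPM in the naive libraries. Vehicle lay below naive without overlap, with a log2 fold change of −0.38 ± 0.11, and GV1001 against vehicle was at 0.29 ± 0.11, with edgeR adjusted p of 0.0941 and 0.528. The coactivator Crebbp was at −0.20 ± 0.09 in EAE GV1001 against naive (adjusted p of 0.686).

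H6pd, which supplies reducing power to the enzyme that regenerates active glucocorticoid, was at 6.05, 11.99 and 10.2 CPM in the EAE GV1001 libraries, 22.3, 6.67 and 11.2 CPM in the EAE vehicle libraries and 4.10, 3.63 and 6.13 CPM in the naive libraries. Both EAE groups against naive gave 1.26 ± 0.43 (adjusted p of 0.224 in edgeR), and GV1001 replicate 1 overlapped the naive range. That enzyme itself, Hsd11b1, was at 15.2 CPM with GV1001, 13.0 CPM with vehicle and 16.8 CPM in naive cord, and the second corticosteroid receptor Nr3c2 at 14.996, 13.1 and 11.7 CPM in the same order, both named after their values were seen. Serpina6, the blood carrier of the hormone, had no read in any library.

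**Figure D4:**
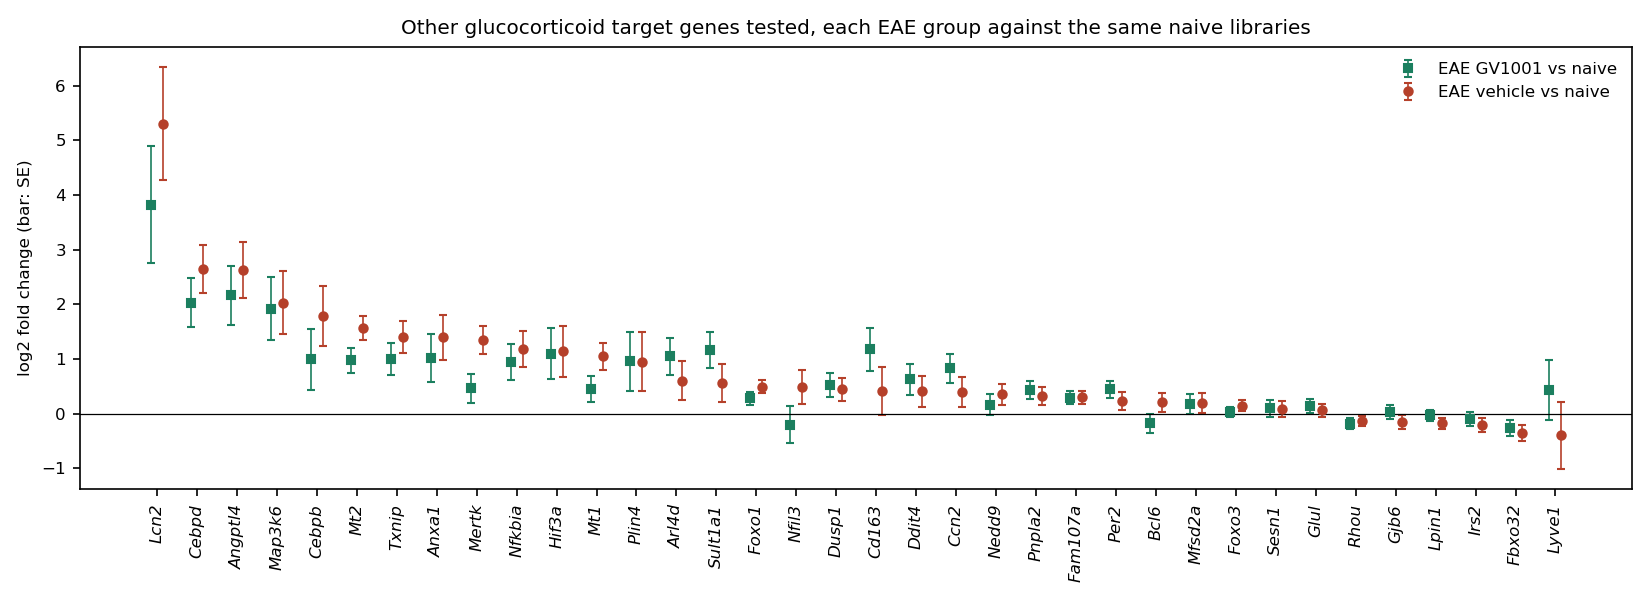
Fitted log2 fold change with its SE (vertical axis) of the 36 other glucocorticoid target genes tested, in EAE GV1001 against naive (squares) and EAE vehicle against naive (circles), ordered by the circles. Most points lie above 0 in both, with medians of 0.45 for GV1001 and 0.43 for vehicle, and both comparisons share the naive libraries.

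A wider list of 40 other glucocorticoid targets, also chosen with earlier results of these data known, had 36 tested genes. None passed in any comparison, with a smallest adjusted p of 0.0629. The median log2 fold change was 0.43 in EAE vehicle against naive, 0.45 in EAE GV1001 against naive and −0.03 in EAE GV1001 against EAE vehicle. Without overlap of libraries, 17 of 36 were higher and 0 lower in EAE vehicle against naive, 20 higher and 1 lower in EAE GV1001 against naive, and 0 higher and 5 lower in EAE GV1001 against EAE vehicle. The shares of all genes higher and lower by this rule were 13.6% and 9.5%, 10.2% and 6.7%, and 5.44% and 5.03% in these comparisons. Several genes of this list are also induced by inflammatory signals, and Mertk is made by phagocytes, whose marker sums are given above.

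Mt2, a metallothionein that binds zinc, was the most abundant of the wider list. It was at 2054, 2880.4 and 1908 CPM in the EAE GV1001 libraries, 3839.5, 2326 and 4152 CPM in the EAE vehicle libraries and 1016, 1199 and 1206 CPM in the naive libraries. All EAE libraries lay above naive, at a log2 fold change of 1.56 ± 0.22 in EAE vehicle against naive and 0.97 ± 0.22 in EAE GV1001 against naive, with edgeR adjusted p of 0.0629 and 0.565. Cebpd, a transcription factor of the acute phase response, was at 24.9, 40.7 and 34.8 CPM in the EAE GV1001 libraries, 86.7, 28.8 and 38.3 CPM in the EAE vehicle libraries and 6.24, 10.53 and 7.40 CPM in the naive libraries. It separated from naive in both EAE groups, with 2.65 ± 0.44 for vehicle (adjusted p of 0.0629) and 2.03 ± 0.45 for GV1001 (0.565). Mertk, a receptor for the uptake of dying cells, was at 41.4, 47.1 and 32.4 CPM in the EAE GV1001 libraries and 103, 49.7 and 68.3 CPM in the EAE vehicle libraries. The groups did not overlap, and the log2 fold change of GV1001 against vehicle was −0.88 ± 0.25 with an adjusted p of 0.528.

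Lists for other signals that reach the same members were counted too, and none of their genes passed in any comparison. Of 18 clock gene symbols listed, 17 were in the count table, and all 17 were tested. Their medians were −0.04, −0.0054 and 0.08 in vehicle against naive, GV1001 against vehicle and GV1001 against naive. Nr1d1, a repressor in the clock, was at 39.7, 38.3 and 40.6 CPM in the EAE GV1001 libraries, 28.01, 27.6 and 37.8 CPM in the EAE vehicle libraries and 44.9, 46.6 and 45.1 CPM in the naive libraries. It lay below naive in all 6 EAE libraries and lower with vehicle than with GV1001 without overlap, with a log2 fold change of −0.58 ± 0.13 in vehicle against naive (edgeR adjusted p of 0.0703) and 0.35 ± 0.13 in GV1001 against vehicle (0.528). Per2, a clock gene that also belongs to the wider target list, was at 0.44 ± 0.16 in GV1001 against naive (0.653), and Tef, the most abundant clock gene, at −0.16 ± 0.13. The time of day of collection was not given, and its part in Per1 and Nr1d1 was not tested.

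Of 16 p53 targets 14 were tested, with medians of 0.27 in vehicle against naive, −0.21 in GV1001 against vehicle and 0.07 in GV1001 against naive. Mdm2, the ligase that degrades p53, was at 56.9, 44.4 and 50.04 CPM in the EAE GV1001 libraries and 72.9, 57.6 and 61.0 CPM in the EAE vehicle libraries, without overlap (−0.34 ± 0.14, edgeR adjusted p of 0.539). Pmaip1, which promotes apoptosis, was at 1.38 ± 0.53 in vehicle against naive (0.178), and the RNA-binding gene Zmat3, the most abundant, at −0.25 ± 0.12 (0.293). Another list of 22 genes covered fatty acid oxidation and targets of the peroxisome proliferator-activated receptors. Of these 20 were tested, with medians of 0.20, −0.12 and 0.08 in the same order. Angptl4, an inhibitor of lipoprotein lipase that belongs to the wider target list as well, had 20, 16 and 30 reads in the EAE GV1001 libraries, 44, 20 and 24 in the EAE vehicle libraries and 3, 5 and 6 in the naive libraries. Its log2 fold change was 2.63 ± 0.51 with vehicle (0.0674) and 2.16 ± 0.54 with GV1001 (0.640) against naive.

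Pdk2, a kinase of the same family as Pdk4, was at 52.5, 59.2 and 65.9 CPM in the EAE GV1001 libraries and 49.7, 52.4 and 39.9 CPM in the EAE vehicle libraries. These groups did not overlap (0.33 ± 0.14, edgeR adjusted p of 0.539). Hadha, a subunit of the mitochondrial trifunctional protein and the most abundant of that list, was at 103 CPM with GV1001, 101 CPM with vehicle and 104 CPM in naive cord. Of 13 genes of epidermal growth factor receptor signalling, which Errfi1 inhibits, 11 were tested, with medians of 0.11, −0.03 and −0.04. Erbb3, a receptor of this family, was at 0.57 ± 0.23 in GV1001 against vehicle (0.539) and −0.61 ± 0.23 in vehicle against naive (0.167), Erbb2 at 0.57 ± 0.47 in GV1001 against naive (0.830), and Spred1, the most abundant, at −0.08 ± 0.09 in vehicle against naive.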

How the data were processed

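The 9 libraries were made from whole spinal cord with a QuantSeq 3′ mRNA kit, per the labels. The authors deposited raw counts per gene symbol, without normalization, in 1 table and in 9 files of single libraries, which matched it in every value. FastQC, STAR, HTSeq and the build GRCm39 are named in the submitters' processing notes. Versions, counting settings and strand handling are not given in the sources used here, so reads of overlapping genes may be shared.

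A minimum count of 10 in filterByExpr left 15351 genes, which were scaled by TMM (factors 0.975 to 1.03). All 9 libraries entered 1 edgeR 4.0.16 fit (R 4.3.3) with a coefficient per group, and each SE was derived from the F statistic. As alternatives, DESeq2 1.42.0, limma-voom (3.58.1), other scalings, filters and thresholds, a replicate block and left-out libraries were run. Log2 CPM used a prior count of 2. Tables and plots were made in Python 3.11.15 with pandas 2.3.3 and matplotlib 3.10.9. The fit was tested on simulated data.

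The members, the 6 other gene lists and the 13 marker lists were chosen with earlier results of these data known. From each list the most abundant gene and, since none passed, the gene with the smallest p in each comparison were named. For Fkbp5 and for the member with the largest SD the 3 nearest genes at a mean of 5 CPM or more were named, predicted symbols left out.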

Additional observations from a re-analysis of the deposited data

How the results depend on the processing

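The counts of members called stayed at 0 in every alternative for EAE GV1001 against EAE vehicle. DESeq2 was run without the filter on low counts and, chosen after seeing the data, on the filtered genes. In EAE vehicle against naive, 2 members (Sgk1 and Fkbp5) were called with DESeq2 on the filtered genes. The count was 1, Sgk1, with DESeq2 or edgeR without the filter and at a threshold of 0.10. It was also 1, Sgk1, in EAE GV1001 against naive with only these groups fitted, and in both EAE groups against naive with either DESeq2 run and with edgeR without the filter. Leaving out each library in turn gave 0 to 2, 0 to 0, 0 to 1 and 0 to 1 members in vehicle against naive, GV1001 against vehicle, GV1001 against naive and both EAE groups against naive. Over all genes these gave 0 to 1652, 0 to 8, 0 to 3 and 0 to 514 calls, where all 9 libraries gave 3, 0, 0 and 1. The largest counts in the first and last came without vehicle replicate 2. In vehicle against naive the calls over all genes were 1109 with DESeq2 on the filtered genes and 1105 without the filter, 0 with limma-voom, 20 with library totals alone, 543 with edgeR without the filter and 862 at a threshold of 0.10. In GV1001 against vehicle DESeq2 called 13 with the filter and 12 without. In GV1001 against naive the counts were 39 with DESeq2 on the filtered genes and 45 without the filter, 5 with only these groups fitted, and 1 with library totals, with edgeR without the filter, with the older quasi-likelihood form and at a threshold of 0.10. In both EAE groups against naive they were 574 with DESeq2 on the filtered genes and 565 without the filter, 0 with limma-voom, 20 with edgeR without the filter and 2 with the older form. The cause of these differences was not tested.

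With the replicate number as a block, 0 genes and 0 members were called in every comparison, and Sgk1 in GV1001 against vehicle turned to 0.015. When the deviations from the group means were correlated, 2 of the 9 pairs sharing a number exceeded 0.1, and the labels do not say that the numbers pair samples. For Sgk1 in GV1001 against vehicle the log2 fold change was 0.11 in limma-voom and ran from −0.29 to 0.57 over the libraries left out. For Nr3c1 in GV1001 against naive it was 0.0046 in DESeq2 without the filter, 0.0038 in DESeq2 on the filtered genes and in edgeR with DESeq2 size factors, 0.025 with library totals and 0.00045 with only these groups, and ran from −0.064 to 0.074. Leaving out a library also turned the sign of Tsc22d3 (−0.21 to 0.021), Pdk4 (−0.024 to 0.79) and Cdkn1a (−0.030 to 0.21) in vehicle against naive, Per1 (−0.24 to 0.016) and Pdk4 (−0.065 to 0.36) in GV1001 against vehicle, and Nr3c1 (−0.10 to 0.026) and Tsc22d3 (−0.0075 to 0.11) in both EAE groups against naive. Depth limits Pdk4 most, with 15 to 45 reads per library.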
